A study of Mus musculus with 4 samples.

Results

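Serine, glycine, threonine and one-carbon metabolism was described in TT2 mouse embryonic stem cells through the transcripts of 10 enzymes: Phgdh, Psat1, Psph, Shmt1, Shmt2, Mthfd1, Mthfd2, Mthfd1l, Tdh and Gldc. The enzymes were selected by gene name, as the route from glucose to serine, the folate enzymes that carry single carbons, the glycine cleavage enzyme Gldc and the threonine enzyme Tdh. They were chosen on these same libraries with their RPKM values in the control siRNA and Hnrnpk siRNA groups already known, so their levels and differences are given as a description, without a test. All 10 were found among the 22138 genes of the table, and all 10 passed the filter on low values.

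Both groups were TT2 cells, a female line from a C57BL/6xCBA preimplantation embryo, held undifferentiated in serum and the cytokine LIF without feeder cells. In the control group (n = 2) a control small interfering RNA (siRNA) was transfected, and in the other (n = 2) an siRNA against Hnrnpk, the gene of hnRNP K, a protein that binds RNA and DNA. Each siRNA was given at 100 nM and again at 50 nM 24 hours later, and RNA was taken about 72 hours after the second transfection. The series concerns the part of hnRNP K in silencing by SETDB1, an enzyme that methylates histone H3 at lysine 9, and the libraries compare depleted with control cells. All cells are of 1 line, and the series text calls the replicates biological without saying how they were separated, so the spread between them may be partly technical. In such bulk RNA, fewer cells that make a transcript and less of it in each cell cannot be told apart.

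Cells make serine from the glycolytic intermediate 3-phosphoglycerate in sequential steps catalysed by PHGDH, PSAT1 and PSPH. The SHMT enzymes split serine into glycine and a folate-bound carbon, SHMT1 in the cytosol and SHMT2 in mitochondria, and the MTHFD enzymes oxidise or reduce that carbon or release it as formate for purine, thymidylate and methionine synthesis. Mouse embryonic stem cells are known for high TDH, which starts the mitochondrial breakdown of threonine to glycine and acetyl-CoA, and for high GLDC, the decarboxylase of the glycine cleavage system, which passes a carbon from glycine to folate. The stress-induced transcription factor ATF4 is a known activator of Phgdh, Psat1, Psph, Shmt2, Mthfd2 and Mthfd1l.

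The promoter windows of 4 of the enzymes are shown because 3 of them, Phgdh, Mthfd1l and Gldc, had the largest differences of the 10, and the other, Mthfd2, had nearly equal group means. Each window runs from 250 bases before to 50 after the transcription start in RefSeq on GRCm38.p6, read 5′ to 3′ on the strand of the gene. Capitals mark every match, on either strand, to the CCAAT box (CCAAT), the GC box (GGGCGG) and the core of the cAMP response element (TGACGT).
Phgdh, chr3:98339920-98340219, minus strand: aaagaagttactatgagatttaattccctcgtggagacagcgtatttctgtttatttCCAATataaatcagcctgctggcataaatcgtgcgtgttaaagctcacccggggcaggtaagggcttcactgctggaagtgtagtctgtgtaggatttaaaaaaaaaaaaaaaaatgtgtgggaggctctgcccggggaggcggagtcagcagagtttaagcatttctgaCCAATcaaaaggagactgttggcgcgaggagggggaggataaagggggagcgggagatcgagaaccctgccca
Mthfd1l, chr10:3972825-3973124, plus strand: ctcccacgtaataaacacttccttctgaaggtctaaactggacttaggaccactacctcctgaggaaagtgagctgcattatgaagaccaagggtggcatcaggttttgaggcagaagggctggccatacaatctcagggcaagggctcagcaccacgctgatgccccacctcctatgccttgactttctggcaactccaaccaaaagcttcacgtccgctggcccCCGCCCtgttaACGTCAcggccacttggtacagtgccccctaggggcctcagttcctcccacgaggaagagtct
Gldc, chr19:30175392-30175691, minus strand: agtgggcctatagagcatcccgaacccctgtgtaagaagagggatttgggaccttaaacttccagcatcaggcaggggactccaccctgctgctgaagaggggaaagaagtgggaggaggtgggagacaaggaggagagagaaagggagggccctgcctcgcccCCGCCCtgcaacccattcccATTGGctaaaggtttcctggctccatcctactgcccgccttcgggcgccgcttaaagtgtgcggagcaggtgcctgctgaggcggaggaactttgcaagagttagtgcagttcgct
Mthfd2, chr6:83317555-83317854, minus strand: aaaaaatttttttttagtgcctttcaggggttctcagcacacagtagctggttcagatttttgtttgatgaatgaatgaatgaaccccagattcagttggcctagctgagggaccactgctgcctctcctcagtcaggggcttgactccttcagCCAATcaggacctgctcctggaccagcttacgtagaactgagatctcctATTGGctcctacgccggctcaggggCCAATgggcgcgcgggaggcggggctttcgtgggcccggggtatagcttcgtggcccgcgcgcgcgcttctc

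The RefSeq table held 10 such windows for 9 of the 10 enzymes, Psat1 having a pair of start sites, and none for Tdh. CCAAT was found in 7 of the 10 windows, against 37.4% of the 32851 mouse promoter windows of the same length, and GGGCGG in 6 of 10, against 35.7%. TGACGT was found in 2, those of Mthfd1l and Psph, against 7.51% of all windows. The Phgdh window held CCAAT matches starting 193 and 23 bases before the transcription start, and that of Mthfd2 held 3, starting 96, 47 and 22 bases before it. In Gldc a single CCAAT match stood 66 bases and a GGGCGG match 86 bases before the start. The ATF4 element TGATGNAA, which occurs in 3.97% of all windows, and the MYC E-box CACGTG, in 7.15%, had no match in the 10 windows. These are letter matches in a short window and say nothing of binding.

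Across genes, libraries of the same group correlated at a Pearson r of 0.9971 and 0.9986 and libraries of different groups at 0.9551 to 0.9597. Hnrnpk itself stood at 236 and 226 RPKM (reads per kilobase of transcript scaled to the mapped reads of each library) in controls and at 68.0 and 70.5 RPKM after Hnrnpk siRNA, so the targeted transcript was low in both libraries labelled as depleted. Relative depth, read from the commonest ratio of low values, was 0.882 to 0.982 of that of control replicate 1. Of the 12 embryonic stem cell markers, 3 were called higher and 5 lower by limma, and their summed level was 4112 to 4260 RPKM in controls and 4869 to 5200 RPKM after Hnrnpk siRNA, so the defining markers of the labelled cell type were present in all 4 libraries. Without Dppa5a, the most abundant of them, the sum was 2835 to 2940 RPKM in controls and 2705 to 2749 RPKM after Hnrnpk siRNA, so the direction of the sum rests on that gene. Among them Nanog rose (log2 difference 0.82) and Sox2 fell (-0.53), the call of Sox2 being lost without a filter. Pou5f1, at -0.15, was not called except under rescaling to the same summed RPKM, under quantile normalization and without Hnrnpk siRNA replicate 2, which called it lower. Markers of other cell states moved with the groups. The summed level of 9 primitive endoderm markers was 20.99 to 21.8 RPKM in controls and 63.1 to 65.0 RPKM after Hnrnpk siRNA, with 6 of 7 tested called higher. For 9 trophectoderm markers it was 31.9 to 37.4 and 72.5 to 77.6 RPKM (6 of 6 higher), and for 9 markers of the 2-cell embryo 0.772 to 0.830 and 44.5 to 52.5 RPKM (8 of 8 higher). For 11 fibroblast and feeder markers it was 10.9 to 12.5 and 7.52 to 7.64 RPKM (1 of 5 higher, 3 lower), and without Thy1, the most abundant, 5.57 to 5.74 and 5.25 to 5.42 RPKM. All 8 tested 2-cell markers averaged 0.020 to 0.233 RPKM in controls and passed the filter through the Hnrnpk siRNA libraries alone. So did Pdgfra of the primitive endoderm list (0.170 RPKM in controls). Acta2 of the fibroblast list passed through the controls (0.435 RPKM after Hnrnpk siRNA). The filter thus largely fixed the direction of those calls, and nothing is read from them. Over all genes tested, 32.2% were called higher and 35% lower. No marker of these lists that the table holds was at 0 in every library. What part these markers have in the levels of the enzymes was not tested. The control libraries also differed from each other in targets of ATF4, with values given beside Mthfd2.

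Across the 10 enzymes, transcript levels were high in control cells, at the 81st to the 98.7th percentile of the 12486 genes tested, and most were lower after Hnrnpk siRNA. Their summed level was 1279 and 1328 RPKM in control replicates 1 and 2, against 953 and 974 RPKM after Hnrnpk siRNA. In 8 of the 10 both Hnrnpk siRNA libraries lay below both control libraries, which was so for 43.5% of all genes tested. The limma fit called those 8 lower and none higher, where 35% of all genes tested were called lower, 32.2% higher and 67.2% either way (Benjamini-Hochberg adjusted p under 0.05). Of the 8, 3 were lower by at least 1 on the log2 scale, a size reached by 4.52% of all genes tested. Since the enzymes were chosen with this contrast in view, nothing is read from these counts. For 1 gene on its own, 2 against 2 libraries allow no exact permutation p smaller than 0.333 (two-sided). The median log2 difference was -0.40 for the enzymes and -0.01 for all genes tested, over a range from -1.32 to -0.0013.

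**Figure D1:**
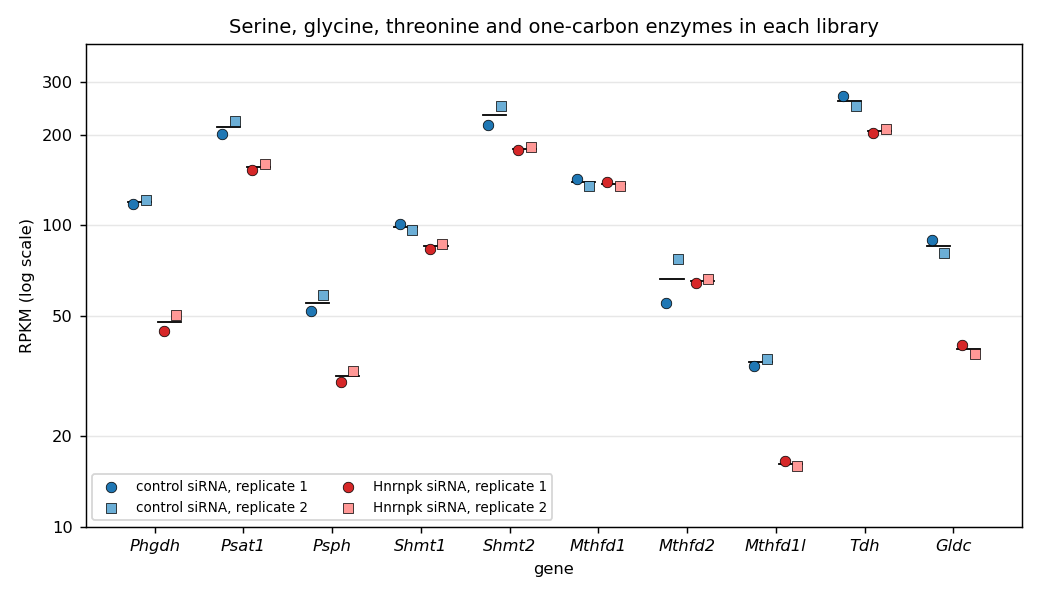
RPKM of the 10 enzymes (log scale) in each of the 4 libraries, with circles for replicate 1, squares for replicate 2, control siRNA in blue, Hnrnpk siRNA in red and group means as black lines. The red points lie below the blue ones for 8 enzymes, while for Mthfd1 they overlap and for Mthfd2 both lie between the control libraries.

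The largest difference in the family was at the entry to serine synthesis. Phgdh, which oxidises 3-phosphoglycerate in the first committed step, stood at 118 and 121 RPKM in control replicates 1 and 2 and at 44.8 and 50.6 RPKM in Hnrnpk siRNA replicates 1 and 2. The groups did not overlap, and the 2 libraries within a group lay close together. Their means were 119 ± 2.69 and 47.7 ± 4.13 RPKM (SD, n = 2 each), 39.9% of control, a log2 difference of -1.32 (SE 0.0724). Only 1.49% of all genes tested had a lower log2 difference. Phgdh (ENSMUSG00000053398, GRCm38 chromosome 3, 98313170 to 98339990, minus strand) has close copies in the genome. Its longest coding transcript of 1893 bases shared 1694 bases (89.5%) with 11 other annotated genes in alignments of 100 bases or longer with at least 95% identity, 9 of them processed pseudogenes. None of those 11 symbols is in the table. The level of Phgdh is therefore uncertain to the extent that reads from such copies were assigned to it, which depends on a counting step not described in the labels.

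The later steps of serine synthesis were less reduced. Psat1, the aminotransferase of the pathway, stood at 201 and 223 RPKM in controls and at 153 and 159 RPKM after Hnrnpk siRNA. The groups did not overlap, with means of 212 ± 15.5 and 156 ± 4.51 RPKM (SD, n = 2 each), 73.7% of control (log2 difference -0.44, SE 0.0717). Psph, the phosphatase that releases serine, stood at 52.2 and 58.8 RPKM in controls and at 30.3 and 32.9 RPKM after Hnrnpk siRNA. It too was lower in both libraries, at 57.0% of control (log2 difference -0.80, SE 0.0763). The proportions of the 3 transcripts within a library, which no rescaling of whole libraries alters, differed between the groups. Psat1 over Phgdh was 1.71 and 1.84 in the controls and 3.42 and 3.15 after Hnrnpk siRNA, and Psph over Phgdh was 0.444 and 0.484 in the controls and 0.678 and 0.651. Psat1 (ENSMUSG00000024640) lies on GRCm38 chromosome 19, 15904678 to 15947337, and Psph (ENSMUSG00000029446) on chromosome 5, 129765558 to 129787449, both on the minus strand. Psph shares 452 bases, 26.1% of its longest coding transcript, with Cct6a on the opposite strand, which encodes a chaperonin subunit. Cct6a was abundant, at 535 and 595 RPKM in controls and 529 and 570 RPKM after Hnrnpk siRNA. The labels do not say whether counting used strand, and the part of Cct6a in the level of Psph was not tested.

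The serine hydroxymethyltransferases had smaller differences. The mitochondrial Shmt2 stood at 216 and 250 RPKM in controls and at 178 and 182 RPKM after Hnrnpk siRNA, 77.1% of control (log2 difference -0.37, SE 0.0788). Its control libraries lay further apart than its Hnrnpk siRNA libraries, and both exceeded them. The cytosolic Shmt1 stood at 101 and 96.7 RPKM in controls and at 83.5 and 86.8 RPKM after Hnrnpk siRNA, 86.0% of control (log2 difference -0.22, SE 0.0627). Shmt1 was the smallest of the 8 differences whose groups did not overlap. Shmt2 over Shmt1, the balance of mitochondrial to cytosolic transcript, was 2.133 and 2.58 in the controls and 2.128 and 2.09 after Hnrnpk siRNA. The lower control library thus lay only just above the higher Hnrnpk siRNA library. Without control replicate 1, or without Hnrnpk siRNA replicate 1, the log2 difference of Shmt1 shrank to -0.18 or -0.19. Shmt1 (ENSMUSG00000020534) lies on GRCm38 chromosome 11, 60788104 to 60811718, and Shmt2 (ENSMUSG00000025403) on chromosome 10, 127517123 to 127522444, both on the minus strand. Shmt1 shares 184 bases (6.44% of its longest coding transcript) with Smcr8 on the opposite strand, which stood at 10.4 and 9.59 RPKM in controls and at 21.8 and 22.0 RPKM after Hnrnpk siRNA. The part of Smcr8 in the level of Shmt1 was not tested.

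The folate enzymes were the most divided. Mthfd1l, the mitochondrial enzyme that releases formate from folate, stood at 34.2 and 36.1 RPKM in controls and at 16.6 and 15.9 RPKM after Hnrnpk siRNA. The groups were far apart relative to their spread, with means of 35.1 ± 1.36 and 16.2 ± 0.484 RPKM (SD, n = 2 each), 46.1% of control (log2 difference -1.09, SE 0.0657). Mthfd1, its cytosolic relative, which joins formate to folate and interconverts the folate-bound carbon, stood at 142 and 136 RPKM in controls and at 140 and 135 RPKM after Hnrnpk siRNA. Its groups overlapped, with a log2 difference of -0.02 (SE 0.0636). Mthfd1l over Mthfd1 accordingly stood at 0.240 and 0.266 in the controls and at 0.119 and 0.118 after Hnrnpk siRNA. The sign of the Mthfd1 difference depended on the processing, from -0.13 under quantile normalization to 0.04 with GC trends removed. Mthfd1l (ENSMUSG00000040675) lies on GRCm38 chromosome 10, 3973118 to 4167081, and Mthfd1 (ENSMUSG00000021048) on chromosome 12, 76255298 to 76319803, both on the plus strand.

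**Figure D2:**
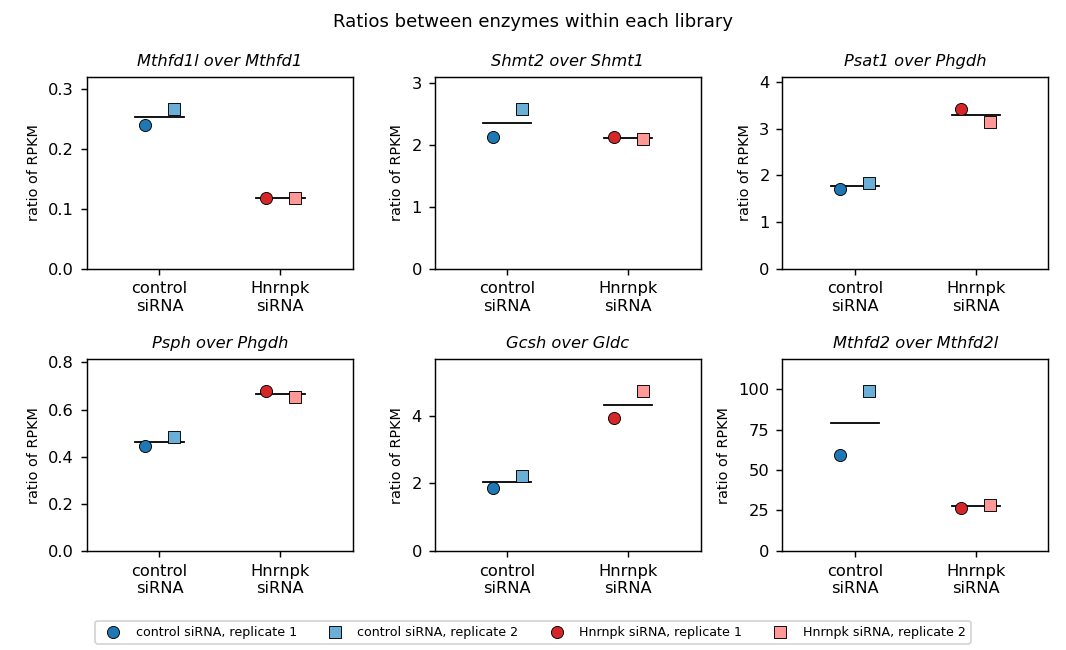
Ratio of the RPKM of 2 enzymes within each library for 6 pairs, with control siRNA in blue, Hnrnpk siRNA in red, circles for replicate 1, squares for replicate 2 and black lines for group means, on axes that start at 0. Mthfd1l over Mthfd1 and Mthfd2 over Mthfd2l are lower in both Hnrnpk siRNA libraries, and Psat1 over Phgdh, Psph over Phgdh and Gcsh over Gldc are higher. For Shmt2 over Shmt1 the lower control library lies only just above the Hnrnpk siRNA libraries.

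Mthfd2, the mitochondrial dehydrogenase and cyclohydrolase that precedes Mthfd1l, had close group means (98.5% of control) but unequal controls. It stood at 55.4 and 77.5 RPKM in control replicates 1 and 2 and at 64.5 and 66.4 RPKM after Hnrnpk siRNA, so both depleted libraries lay between the controls. The log2 difference was -0.0013 (SE 0.126), with the widest SE of the 10 enzymes, and it was -0.24 without control replicate 1 and 0.24 without control replicate 2. Its sign thus depended on which control library was used. Control replicate 2 exceeded replicate 1 by 0.48 in Mthfd2 on the log2 scale, and only 1.07% of all genes tested had control libraries that far apart. Of the other 9 enzymes, Shmt2, Psph and Psat1 were also higher in control replicate 2, by 0.21, 0.17 and 0.15, and Gldc and Tdh were lower in it, by -0.14 and -0.12. Other known ATF4 targets outside the family moved with that library, 18 of 21 tested being higher in control replicate 2 than in replicate 1 (median 0.39), against 42.7% of all genes tested (median -0.02). Between the Hnrnpk siRNA libraries, 16 of the 21 were higher in replicate 2 (median 0.08), against 7220 of 12486 genes tested (median 0.02). Atf4 itself stood at 188 and 306 RPKM in the controls and at 305 and 333 RPKM after Hnrnpk siRNA. Without control replicate 1 or 2, the log2 difference was -1.34 or -1.30 for Phgdh, -0.51 or -0.36 for Psat1, -0.88 or -0.71 for Psph, -0.47 or -0.27 for Shmt2 and -1.13 or -1.05 for Mthfd1l. The sign of these 5 could not change, since in each both Hnrnpk siRNA libraries lay below both controls, so nothing is read from it. What part this difference between the controls has in the levels of the enzymes was not tested. Mthfd2 (ENSMUSG00000005667) lies on GRCm38 chromosome 6, 83305691 to 83325908, minus strand.

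**Figure D3:**
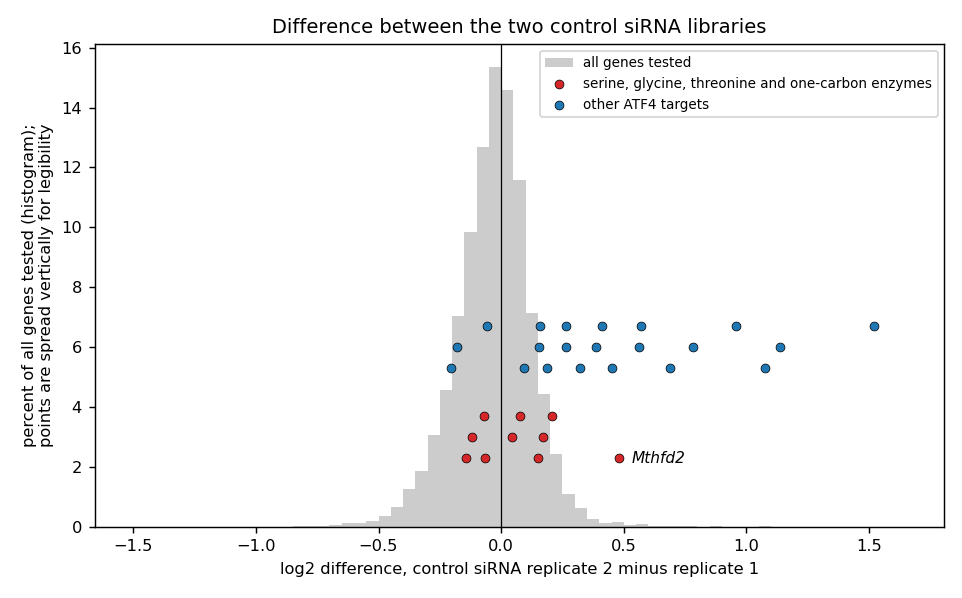
Log2 difference between control siRNA replicate 2 and replicate 1 on the x axis, for all 12486 genes tested (grey histogram, percent of genes on the y axis, with values beyond the ends drawn in the last bins), the 10 enzymes (red points) and 21 other ATF4 targets (blue points, spread vertically for legibility). Of the blue points, 18 lie right of 0, and Mthfd2 at 0.48 is the red point farthest right.

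Tdh had the highest mean of the 10 in control cells, although in control replicate 2 Shmt2, at 250 RPKM, was slightly higher. Tdh stood at 270 and 249 RPKM in controls and at 203 and 208 RPKM after Hnrnpk siRNA, 79.3% of control (log2 difference -0.33, SE 0.0688). Both depleted libraries were lower, and in both of them Tdh was the highest of the 10, ahead of Shmt2. Tdh (ENSMUSG00000021953, GRCm38 chromosome 14, 63492347 to 63509092, minus strand) shares 1120 bases (59.5% of its longest coding transcript) with Gm13929, a transcribed processed pseudogene not analysed here, at up to 97.1% identity. Gldc stood at 89.5 and 81.1 RPKM in controls and at 40.1 and 37.5 RPKM after Hnrnpk siRNA, with means of 85.3 ± 5.95 and 38.8 ± 1.83 RPKM (SD, n = 2 each). This was 45.5% of control (log2 difference -1.13, SE 0.0710), the second largest difference of the 10 after Phgdh. The 2 enzymes differed in how far they stood below control, and Tdh over Gldc was 3.01 and 3.06 in the controls and 5.06 and 5.55 after Hnrnpk siRNA. Gldc (ENSMUSG00000024827) lies on GRCm38 chromosome 19, 30098447 to 30175429, minus strand.

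**Figure D4:**
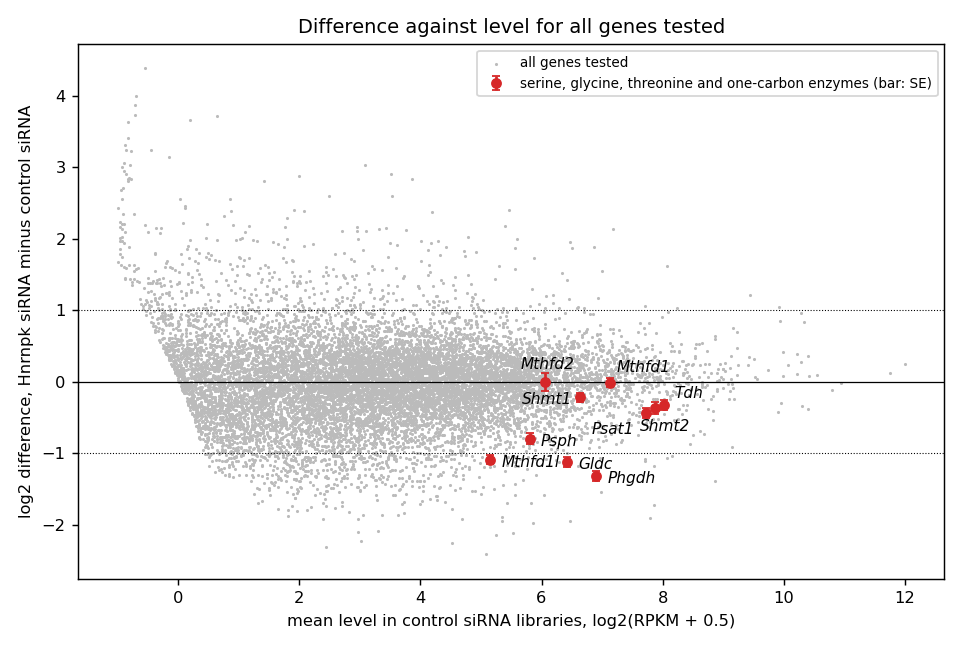
Log2 difference (Hnrnpk siRNA minus control siRNA, y axis) against mean control level as log2(RPKM + 0.5) (x axis) for 12486 genes in grey and the 10 enzymes in red with SE bars. The dotted lines mark differences of 1 in size, and Phgdh, Gldc and Mthfd1l lie below the lower one.

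Ordered by control level per length of transcript, the enzymes ran Tdh, Shmt2, Psat1, Mthfd1, Phgdh, Shmt1, Gldc, Mthfd2, Psph and Mthfd1l. In control libraries the values of Tdh and Shmt2 overlapped, as did those of Shmt2 and Psat1 and those of Mthfd2 and Psph, so these neighbours did not differ beyond their spread. After Hnrnpk siRNA the order was Tdh, Shmt2, Psat1, Mthfd1, Shmt1, Mthfd2, Phgdh, Gldc, Psph and Mthfd1l. Phgdh thus went from the fifth place to the seventh, below Shmt1 and Mthfd2, and no neighbours overlapped in these libraries.

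The genes around the family came from lists of known pathway members, none of which is among the 10 enzymes, and were tested in the same fit. In the glycine cleavage and threonine list, 5 of 8 tested genes were called lower and 1 higher, against 35% and 32.2% of all genes tested. The median log2 difference was -0.38, against -0.01 over all genes tested. The proteins that work with Gldc in glycine cleavage had smaller differences than Gldc. Gcsh, the lipoyl carrier, stood at 167 and 181 RPKM in controls and 158 and 178 RPKM after Hnrnpk siRNA (log2 difference -0.05, limma adjusted p = 0.581), and Dld, the dihydrolipoyl dehydrogenase, at 56.8 and 58.2 against 54.2 and 53.0 RPKM (-0.10, limma adjusted p = 0.170). Amt, the aminomethyltransferase, fell from 19.2 ± 0.0642 RPKM in controls to 16.0 ± 1.16 RPKM (SD, n = 2 each). Its log2 difference was -0.26 (limma adjusted p = 0.00979), a call lost without a filter and without Hnrnpk siRNA replicate 1. Under quantile normalization Gcsh and Dld were called lower too, at -0.19 and -0.16, and Dld also under rescaling to the same summed RPKM (-0.19) and with GC trends removed (-0.21). Gcsh over Gldc was 1.86 and 2.23 in the controls and 3.94 and 4.74 after Hnrnpk siRNA. Gcat, which takes the product of Tdh on to glycine, fell from 27.2 ± 1.57 RPKM in controls to 17.3 ± 0.494 RPKM (SD, n = 2 each; log2 difference -0.64, limma adjusted p = 3.21e-05). Tdh over Gcat was 9.53 in both controls and 11.97 and 11.8 after Hnrnpk siRNA. Gnmt, which methylates glycine, had the largest fall of the list, from 4.66 and 3.08 to 0.639 and 0.837 RPKM (log2 difference -1.80, limma adjusted p = 8.88e-06). Pipox, a sarcosine oxidase, fell with a log2 difference of -0.84, and Gatm, which uses glycine to make the creatine precursor, rose with one of 0.46. Gamt, which completes creatine synthesis, fell with one of -0.50.

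Against 32.2% of all genes tested called higher and 35% lower, the folate cycle list outside the 10 enzymes went both ways. Of its 17 tested genes, 9 were called higher and 6 lower, with a median of 0.24. Without Hnrnpk siRNA replicate 2 only 4 were called higher. Mthfd2l, the paralog of Mthfd2, rose from 0.928 and 0.785 RPKM in controls to 2.43 and 2.33 RPKM (log2 difference 1.09, limma adjusted p = 8.95e-06). It remained scarce, and Mthfd2 over Mthfd2l was 59.6 and 98.8 in the controls and 26.5 and 28.5 after Hnrnpk siRNA. Aldh1l2, the mitochondrial enzyme that oxidises formyl-folate, fell from 1.37 and 1.604 to 0.414 and 0.433 RPKM (log2 difference -1.10). Aldh1l2 averaged 0.423 RPKM after Hnrnpk siRNA and passed the filter only through the controls, so nothing is read from its call. Its cytosolic relative Aldh1l1 rose from 1.67 and 1.32 to 2.06 and 2.21 RPKM (0.41, limma adjusted p = 0.00721), a call lost without a filter and without Hnrnpk siRNA replicate 2. Mtr, methionine synthase, fell from 15.4 RPKM in both controls to 7.91 and 6.99 RPKM, and the folate carrier Slc19a1 from 6.94 and 7.72 to 3.65 and 3.59 RPKM. Tyms, thymidylate synthase, fell from 16.8 and 17.5 to 9.42 and 9.96 RPKM (log2 difference -0.79, limma adjusted p = 8.99e-06). Folr1, a folate receptor, rose from 24.5 and 31.3 to 45.6 and 49.4 RPKM (log2 difference 0.77), and its relative Folr2 from 0.425 and 0.385 to 1.04 and 1.14 RPKM (0.81). Folr2 averaged 0.405 RPKM in controls and passed the filter only through the Hnrnpk siRNA libraries, so nothing is read from its call. Without a filter Folr1 was not called. The mitochondrial folate carrier Slc25a32 fell by 0.20 on the log2 scale, a call lost without any of 3 libraries (control replicate 2, Hnrnpk siRNA replicate 1 or Hnrnpk siRNA replicate 2). That call was also lost under quantile normalization and with length trends removed.

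Among genes that use or move serine, 7 of 17 tested rose and 7 fell (median -0.08). This was 41.2% each way, against 32.2% of all genes tested called higher and 35% lower. Those that fell were led by carriers. The neutral amino acid transporters Slc1a4 and Slc1a5 went from 17.5 and 28.8 to 10.2 and 10.5 RPKM and from 23.4 and 27.9 to 12.9 and 13.4 RPKM (log2 differences -1.09 and -0.93, limma adjusted p = 0.000405 and 1.27e-05). That of Slc1a4 was -1.44 without control replicate 1 and -0.74 without control replicate 2, and its call was lost without a filter. Sfxn1, the mitochondrial serine carrier, fell from 43.3 ± 0.385 RPKM in controls to 28.4 ± 0.431 RPKM (SD, n = 2 each; log2 difference -0.60, limma adjusted p = 2.13e-05), and its relative Sfxn3 fell with a log2 difference of -0.69. Those that rose included Srr, serine racemase, from 0.758 and 0.609 to 1.82 and 1.94 RPKM (log2 difference 1.01), and Ptdss1, which puts serine into phosphatidylserine, from 13.7 ± 1.09 to 21.6 ± 0.642 RPKM (SD, n = 2 each; 0.64). The membrane proteins Serinc3 and Serinc1 rose with log2 differences of 0.82 and 0.78.

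The purine and thymidylate list, whose early and late steps take carbons from folate, fell in 12 of 19 tested genes (median -0.37). Over all genes tested, 35% were called lower and 32.2% higher. The single gene called higher was Ppat, the first enzyme of purine synthesis, with a log2 difference of 0.20, a call lost in 6 settings: without control replicate 1, without Hnrnpk siRNA replicate 1, without a filter, under rescaling to the same summed RPKM, under quantile normalization and with GC trends removed. Tk1, thymidine kinase, fell from 24.7 and 27.4 to 10.9 and 11.7 RPKM, Dctd, deoxycytidylate deaminase, from 32.0 and 32.8 to 16.4 and 16.8 RPKM, and Pfas, a purine synthesis enzyme, from 52.5 and 52.7 to 32.4 and 32.0 RPKM. Their log2 differences were -1.17, -0.95 and -0.70, with limma adjusted p-values of 1.51e-06, 1.73e-06 and 7.59e-06. Prps2, which makes the ribose donor, fell with a log2 difference of -0.78.

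Of 11 known regulators of the family tested, 6 were called higher and 4 lower, against 32.2% and 35% of all genes tested. The list mixes reported activators with a reported repressor, so these directions do not show whether the regulators agree. Atf4 had a log2 difference of 0.41 (SE 0.175, limma adjusted p = 0.0629), with overlapping groups. That difference was 0.76 without control replicate 2 and 0.06 without control replicate 1. With all libraries kept, Atf4 was called higher under median of ratios scaling (0.42), with GC trends removed (0.51) and with the replicate block (0.41). Myc stood at 18.3 and 34.3 RPKM in controls and 39.2 and 37.8 RPKM after Hnrnpk siRNA (log2 difference 0.61, limma adjusted p = 0.0293), a call lost without control replicate 1, without Hnrnpk siRNA replicate 1, without a filter and with length trends removed. Its log2 difference was 0.16 without control replicate 1 and 1.05 without control replicate 2. Mycn, the MYC relative of stem and progenitor cells, fell from 81.5 ± 3.49 RPKM in controls to 41.6 ± 0.538 RPKM (SD, n = 2 each; log2 difference -0.96, limma adjusted p = 1.56e-06). Ehmt2, the histone methyltransferase G9a, reported as an activator of serine synthesis genes, fell from 49.0 ± 0.978 to 31.1 ± 1.10 RPKM (SD, n = 2 each; -0.65, limma adjusted p = 1.63e-05). Trp53, whose protein is reported to repress Phgdh, rose from 282 ± 2.97 to 380 ± 6.99 RPKM (SD, n = 2 each; 0.43, limma adjusted p = 0.000290), and Mdm2, which encodes a p53 ligase and is a p53 target, rose with a log2 difference of 1.61. Nfe2l2, which encodes NRF2, rose with one of 0.40, a call lost without a filter, and the transcription factor gene Yy1 with one of 0.46. Eif2ak4, which encodes the amino acid sensor GCN2, and Kdm4c, a histone demethylase gene, fell with log2 differences of -0.61 and -0.28.

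**Figure D5:**
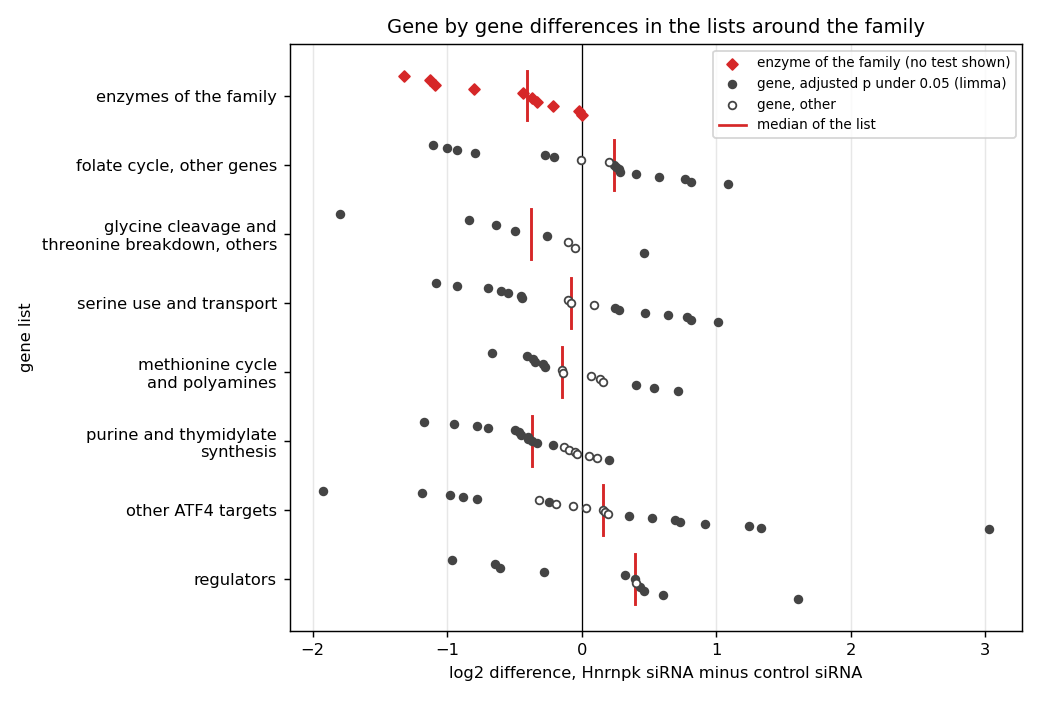
Log2 difference (Hnrnpk siRNA minus control siRNA, x axis) of each gene of the family (red diamonds, no test shown) and of 7 lists around it (filled circles for an adjusted p under 0.05 by limma, open circles otherwise), with list medians as red lines. The family spans -1.32 to -0.0013, the purine and thymidylate list lies mostly left of 0, and the folate, serine use and ATF4 lists spread to both sides.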

How the data were processed

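RNA-seq libraries from TT2 cells, 2 with control siRNA and 2 with Hnrnpk siRNA, were analysed from 1 table of RPKM values per gene deposited by the authors, with a column for each library. The submitters' processing notes name BWA, SAMtools and the mouse build mm9. Which tool and annotation were used for counting, whether strand was used and how multiply matching reads were treated were not given in the sources used here. Per the labels, the RNA was both depleted of ribosomal RNA and selected for poly(A). Total counts are not known; relative depth was taken from the commonest ratio of low values between libraries.

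Values were analysed as log2(RPKM + 0.5), a scale that understates the change of low genes, for 12486 of 22138 genes, those averaging 0.5 RPKM or more over the 4 libraries. The groups, taken from the labels, were compared by two-sided moderated tests in limma (version 3.58.1, run under R 4.3.3), fitted with a trend of variance on level and 7.47 prior degrees of freedom. The Benjamini-Hochberg adjustment ran over all genes tested, and an adjusted p under 0.05 was the threshold of a call. The procedure was tested on simulated data in which only a small part of the genes changed. That test does not cover a change as wide as the one called here. No covariate was used: deviations of libraries with the same replicate number had a correlation of 0.0267 across genes. Alternatives changed the value added, the filter, the scaling, the variance model, the block and the libraries used. Removal of GC or length trends, and marker sums without the most abundant marker, were chosen after seeing the data.

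Of the table's gene identifiers, 20551 (92.8%) were found in GENCODE M21, which gave positions on GRCm38, a later build than the one the authors used. Transcripts were compared with BLAST 2.17.0, and promoters came from RefSeq on GRCm38.p6. The enzymes, the gene lists and the tests were chosen with earlier results of these data known. The lists were the folate cycle, glycine cleavage and threonine breakdown, serine use and transport, the methionine cycle and polyamines, purine and thymidylate synthesis, other ATF4 targets, regulators, and markers of embryonic stem cells, primitive endoderm, trophectoderm, the 2-cell stage and fibroblasts. Named were all 10 enzymes, a set of pathway genes fixed whatever their values, and from each list up to 4 called genes a direction with the largest differences. Mthfsl, Pkm, Tfap2c, Tcstv1, Tcstv3 and Usp17le matched no symbol and were not analysed here, and a second row of Dab2 was left out. Some genes of the folate list are counted in it but not reported here by name.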

Additional observations from a re-analysis of the deposited data

How the results depend on the processing

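Of 15 alternative settings, those that kept all 4 libraries called 8 enzymes lower and none higher, except that Shmt2 was not called without a filter. Leaving out 1 library at a time, the log2 differences of the same 8 enzymes stayed below 0. That sign was fixed in advance, since in each of them both Hnrnpk siRNA libraries lay below both controls. Over the same omissions the log2 difference of Mthfd2 ran from -0.24 to 0.24. Since the enzymes were chosen with this contrast known, their calls are a description in every setting, and nothing is read from them. Rescaling each library to the same summed RPKM moved the log2 difference to -1.21 for Gldc, -0.11 for Mthfd1, -1.18 for Mthfd1l, -0.52 for Psat1, -0.30 for Shmt1 and -0.42 for Tdh. Quantile normalization gave -0.13 for Mthfd1, -0.54 for Psat1, -0.29 for Shmt1 and -0.44 for Tdh. With GC trends removed, an alternative chosen after seeing the data, it was 0.042 for Mthfd1, -1.19 for Phgdh, -0.24 for Shmt2 and -0.26 for Tdh. Of the 107 other pathway genes tested, 35 were called higher and 46 lower, against 32.2% and 35% of all genes tested. Without a filter 19 of the 107 were called higher, and the cause was not tested. Without 1 library they were 28 to 41 higher and 40 to 51 lower, and over all genes tested 3155 to 4033 higher and 3552 to 4502 lower. Without a filter the number called higher was 5 for the folate list, 3 for the glycine and threonine list, 5 for other ATF4 targets (3 lower), 3 for regulators and 0 for the purine list. With GC trends removed the methionine list had 5 called higher. The replicate numbers were not shown to pair the libraries (correlation of same-number deviations 0.0267). With the replicate block, 4162 of all genes tested were called higher and 4460 lower, 39 and 47 of the pathway genes, and the same number of enzymes, 8, lower; Atf4 was then called, at the same log2 difference of 0.41. Total counts were not known, so no counting error can be given for low genes.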

Other observations

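Other known targets of ATF4, outside the serine and folate routes, went in both directions (median log2 difference 0.16). Of 21 tested, 8 were called higher and 6 lower by limma, against 32.2% and 35% of all genes tested. The numbers depended on which control library was used: 13 were called higher without control replicate 2 and 10 lower without control replicate 1. Pycr1, which makes proline, fell from 26.8 and 23.6 RPKM in controls to 6.51 and 6.01 RPKM (log2 difference -1.92, limma adjusted p = 1.45e-07), and Aldh18a1, which starts the route, from 50.2 and 60.3 to 29.7 and 29.6 RPKM (-0.88). Pck2, a mitochondrial enzyme that draws carbon toward 3-phosphoglycerate, went from 23.5 and 31.3 to 11.5 and 11.7 RPKM (-1.19), and the alanine transaminase Gpt2 fell with a log2 difference of -0.98, a call lost without a filter. Those that rose included Ddit3, which encodes the stress factor CHOP, from 4.82 and 11.2 to 60.0 and 68.1 RPKM (log2 difference 3.03, limma adjusted p = 1.01e-05), and Asns, asparagine synthetase, from 235 ± 6.65 to 301 ± 13.9 RPKM (SD, n = 2 each; 0.35, limma adjusted p = 0.00128). Ddit4, Atf3 and Trib3 rose with log2 differences of 1.33, 1.24 and 0.92. Without control replicate 1 and without control replicate 2 these were 0.76 and 1.72 for Atf3 and 0.38 and 1.45 for Trib3, and without a filter neither was called.

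The methionine cycle and polyamine list, which receives a carbon from folate through methionine synthase, had a median log2 difference of -0.14. Of its 14 tested genes, 3 were called higher and 6 lower, against 32.2% and 35% of all genes tested. Mat2b, a regulatory subunit of the enzyme that makes the methyl donor, rose with a log2 difference of 0.72, and Mat2a, its catalytic partner, with one of 0.40. Mri1, of the methionine salvage pathway, rose with one of 0.54. Ahcyl1, a relative of the adenosylhomocysteine hydrolase, had the largest fall of the list at -0.67. Odc1, the first enzyme of polyamine synthesis, Mtap, which salvages methylthioadenosine, and Sms, spermine synthase, fell with log2 differences of -0.40, -0.36 and -0.35. Without a filter the calls of Mat2a and Odc1 were lost.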
